A study of Homo sapiens with 48 samples.

Results

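The network of MYC, MAX and MXD proteins was followed in K562 cells, an established line from human chronic myeloid leukaemia whose growth is driven by the BCR-ABL1 kinase, after treatment with imatinib, an inhibitor of that kinase. The members were MYC, MYCN, MAX, MXD1, MXD3, MXD4, MXI1, MNT and MLX, and every probe set annotated to any of these 9 genes was taken, which gave 20 of the 22215 probe sets that are not controls. MAX had 5 probe sets, MLX had 4, MYCN and MXD4 had 3 each, and the other genes had 1 each. No filter on low values was applied, so all 20 were tested. The imatinib groups received 1 micromolar imatinib for 24 hours and the mock groups were mock treated. Among the labels of the imatinib samples, the keyword field says mock treated, against their titles and descriptions, and the grouping rests on the titles and descriptions. The samples carry letters, A to H, that mark 8 sets, and each set holds 3 imatinib and 3 mock samples of this same line, 48 in all. What a letter stands for, and whether each sample was a culture of its own, is not stated in the labels, so the p-values rest on a spread between samples that may be only technical.

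MYC is a transcription factor that binds DNA as a dimer with MAX, at sites called E-boxes, and raises the output of genes of ribosome production, metabolism and cell division. The MXD proteins, MXI1 and MNT also pair with MAX on E-boxes, but recruit histone deacetylase complexes and lower the output of their targets. MLX pairs with some of these repressors and with the glucose-responsive factors MLXIP and MLXIPL, so it links the network to metabolism. MYC is a known effector of BCR-ABL1 signalling in chronic myeloid leukaemia.

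Values are log2 levels, 1 per probe set and sample, between 2.41 and 14.9. Array means differed by at most 0.053 within a set but lay between 5.89 and 7.61 over the sets, so imatinib and mock levels were compared within sets only. A mean level over all samples served to choose the brightest probe set of a gene and to mark probe sets below the median level of all probe sets, 6.43, which a filter tried as an alternative leaves out. Such a level depends on the probes and does not measure how much transcript is present. The median replicate SD lay between 0.061 and 0.147 over the 16 groups. RNA of the imatinib samples was isolated with a column kit alone and that of the mock samples with Trizol before the column kit, in every set, so treatment and isolation cannot be told apart. The labels also give the imatinib samples a smaller amount of spike-in control RNA than the mock samples. The 3′ minus 5′ signal of the ACTB control probe sets was 0.15 ± 0.19 higher in imatinib than in mock samples (log2, SD over 8 sets, above 0 in 6), and that of GAPDH 0.019 ± 0.078; the part of RNA quality in the results was not tested. All 6 measured erythroid markers of K562 rose, with a median change of 1.63, and their part in the results was not tested either. Of the markers of other cell types, 3 of 6 T cell markers were called higher and 1 lower, 4 of 5 B cell markers higher, 1 of 7 monocyte and granulocyte markers higher and 1 lower, and 3 of 6 fibroblast and epithelial markers higher and 1 lower. Over all 11963 genes 41.6% were called higher and 27.1% lower. In such bulk samples, fewer cells of a type and less RNA per cell cannot be told apart.

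Imatinib-treated cells had less MYC and MAX transcript and more transcript of the repressors MXD4, MXD3 and MNT. MYC fell by 1.36 ± 0.04 on the log2 scale, to 0.39 of its mock level, and MXD4 rose by 0.56 to 0.84 over its 3 probe sets (log2 changes, imatinib minus mock, standard error of the combined fit of 24 against 24 samples). The brightest MAX probe set fell by 0.50 ± 0.04. A probe set was called when its adjusted p in limma was below 0.05 after Benjamini-Hochberg adjustment over all 22215. Of the 20 probe sets, 10 were called higher, 5 lower and 5 were not called. Over all probe sets 39.3% were called higher and 25.8% lower, so the members' counts stand near this background. With the arrays centred on their median, 6 of the 20 were called higher and 5 lower, against 27.9% and 29.9% of all probe sets. The median change of the 20 was 0.07, against 0.046 over all probe sets.

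**Figure D1:**
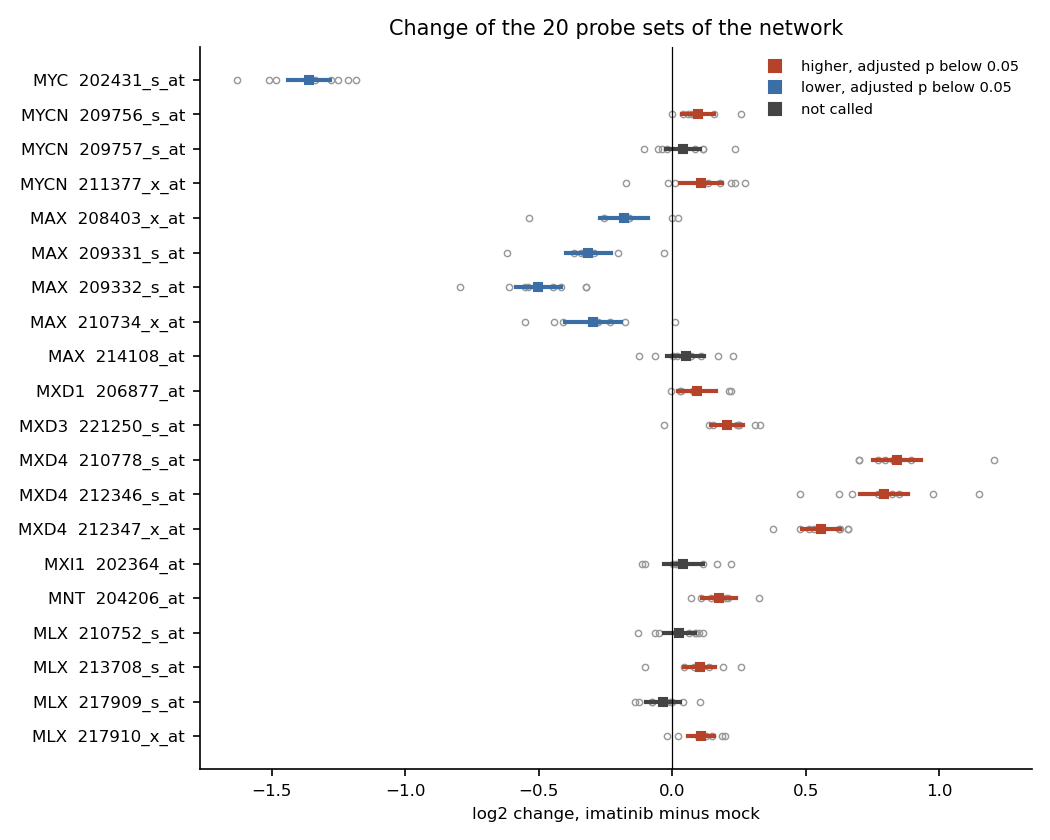
Log2 change (imatinib minus mock, x axis) of the 20 probe sets of the network. Squares with bars give the combined fit of 24 against 24 samples with its 95% confidence interval, coloured by call, and open circles give the 8 sets. MYC lies farthest left at -1.36, 4 of the 5 MAX probe sets lie left of 0, and the 3 MXD4 probe sets lie between 0.56 and 0.84.

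MYC was measured by the probe set 202431_s_at. In set A its log2 level was 8.53, 8.72 and 8.67 in imatinib samples, against 9.90, 9.79 and 9.77 in mock samples. In set B it was 10.08, 10.08 and 10 in imatinib samples, against 11.39, 11.36 and 11.42 in mock samples. In set C it was 8.81, 8.77 and 8.66 in imatinib samples, against 10.21, 10.32 and 10.23 in mock samples. In these 3 sets every imatinib sample lay more than 1 log2 unit below every mock sample of its set. In set D the level was 8.54, 8.54 and 8.62 with imatinib, against 10.06, 10.06 and 10.45 with mock treatment. In set E it was 8.01, 7.87 and 7.92 with imatinib, against 9.38, 9.47 and 9.41 with mock treatment. Sets D and E again showed no overlap, and the third mock sample of set D was the highest of its group. In set F the level was 8.97, 9.40 and 9.51 with imatinib, against 10.52, 10.55 and 10.45 with mock treatment. In set G it was 10.11, 9.99 and 10.01 with imatinib, against 11.32, 11.41 and 11.20 with mock treatment. In set H it was 8.72, 9.03 and 8.94 with imatinib, against 10.19, 10.21 and 10.04 with mock treatment. The first imatinib sample of set F was low within its group, which had the largest spread of any imatinib group for MYC (SD 0.283).

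MYC was thus lower and without overlap in 8 of 8 sets, a pattern held in the lower direction by 8.60% of all probe sets. Its change in a set lay between -1.63 in set D and -1.18 in set A, and each set alone passed the test, with adjusted p-values from 3.8e-08 to 0.000403 in limma. In the combined fit the adjusted p was 5.09e-33. The set-by-treatment test gave an adjusted p of 0.115, so a difference in MYC's change between sets was not called.

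MAX is the shared partner of MYC and of its antagonists. Its probe set 209332_s_at had levels of 7.89, 7.72 and 7.90 in imatinib samples of set A, against 8.21, 8.30 and 8.25 in mock samples. In set B the levels were 9.07, 9.21 and 9.34 in imatinib samples, against 9.76, 9.74 and 9.74 in mock samples. In set C they were 7.16, 7.23 and 6.96 in imatinib samples, against 7.79, 7.90 and 8.04 in mock samples. Set C had the largest fall of this probe set, with a log2 change of -0.80. In set D the levels were 8.85, 8.81 and 8.89 with imatinib, against 9.48, 9.31 and 9.42 with mock treatment. In set E they were 7.03, 6.24 and 6.82 with imatinib, against 7.26, 7.34 and 7.34 with mock treatment. The second imatinib sample of set E stood below the other two of its group, and the groups still did not overlap. In set F the levels were 8.70, 8.55 and 8.46 with imatinib, against 9.02, 8.82 and 8.84 with mock treatment. In set G they were 9.25, 9.20 and 9.18 with imatinib, against 9.64, 9.70 and 9.63 with mock treatment. In set H they were 8.83, 9.0 and 9.01 with imatinib, against 9.17, 9.42 and 9.23 with mock treatment. MAX 209332_s_at was therefore lower without overlap in all 8 sets, like the 8.60% of probe sets above.

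In the combined fit MAX 209332_s_at had an adjusted p of 6.67e-15, and 7 of the 8 single sets were called. Set F was the exception, with an adjusted p of 0.0541 in limma. That adjusted p was 0.0434 without the first imatinib sample of set F. The call in set E was lost without any 1 of its mock samples (adjusted p from 0.0723 to 0.0731), and the call in set H without its second mock sample (0.0927) or its first imatinib sample (0.0592). The other MAX probe sets fell less or not at all. Probe set 209331_s_at had a change of -0.31 ± 0.04 and 210734_x_at one of -0.29 ± 0.05, with adjusted p-values of 9.63e-09 and 3.12e-06. Probe set 208403_x_at had a change of -0.18 ± 0.05 with an adjusted p of 0.000473, and it lay below 0 in 7 sets. In set D its mock samples were uneven, at 6.74, 7.33 and 7.30, against 7.16, 7.19 and 7.08 in imatinib samples, and the groups overlapped. Probe set 214108_at, whose mean of 5.95 places it among those the filter leaves out, had a change of 0.05 with a 95% confidence interval from -0.02 to 0.12 and was not called (adjusted p = 0.191). The MAX transcript thus gave unequal values over its probe sets, and 4 of 5 were called lower.

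MXD4 is a repressor of the MXD family that pairs with MAX and is known from cells that leave the cell cycle and differentiate. Its 3 probe sets are annotated to MXD4 and to the microRNA gene MIR4800 together, which lies within MXD4 in the RefSeq annotation. The brightest, 212346_s_at, had levels of 7.99, 8.09 and 7.96 in imatinib samples of set A, against 7.04, 7.27 and 7.26 in mock samples. In set B the levels were 9.17, 9.05 and 9.07 in imatinib samples, against 8.31, 8.47 and 8.49 in mock samples. In set C they were 8.30, 8.14 and 8.32 in imatinib samples, against 7.48, 7.17 and 7.18 in mock samples. In each of these sets the imatinib samples were all above the mock samples. In set D the levels were 7.79, 7.81 and 7.57 with imatinib, against 6.68, 6.67 and 6.38 with mock treatment. In set E they were 8.25, 8.34 and 8.19 with imatinib, against 7.68, 7.42 and 7.80 with mock treatment. Set D had the largest rise of this probe set, by 1.15. In set F the levels were 7.83, 7.73 and 7.71 with imatinib, against 7.04, 7.23 and 7.55 with mock treatment. In set G they were 8.88, 8.79 and 8.93 with imatinib, against 8.01, 8.17 and 7.88 with mock treatment. In set H they were 8.16, 7.96 and 8.08 with imatinib, against 7.24, 7.29 and 7.36 with mock treatment. Set F had the smallest rise, by 0.48, and the third mock sample of this set came closest to the imatinib group.

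All 3 MXD4 probe sets were higher without overlap in 8 of 8 sets, a pattern held in the higher direction by 5.43% of all probe sets. All 3 were also called in every set, and how many of all probe sets were so called was not counted. The combined changes were 0.84 ± 0.05 for 210778_s_at, 0.79 ± 0.05 for 212346_s_at and 0.56 ± 0.04 for 212347_x_at, with adjusted p-values of 7.57e-22, 5.82e-21 and 3e-19. The probe set 210778_s_at had its largest rise in set A, where its levels were 7.40, 7.55 and 7.75 with imatinib, against 6.40, 6.38 and 6.29 with mock treatment. Only 212346_s_at among the 20 was called for a change that differed between sets (adjusted p = 0.0382, limma's F test of the set-by-treatment terms), against 7.20% of all probe sets. That call was lost with the arrays centred on their median (adjusted p = 0.0594), with a replicate block (0.0877), and without any 1 of 13 samples or any 1 of sets B, C, D and F. In set F the call of its rise was lost without any 1 of 5 of the 6 samples, namely the 3 imatinib samples and the first and second mock samples, with adjusted p-values of 0.0702 to 0.107.

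**Figure D2:**
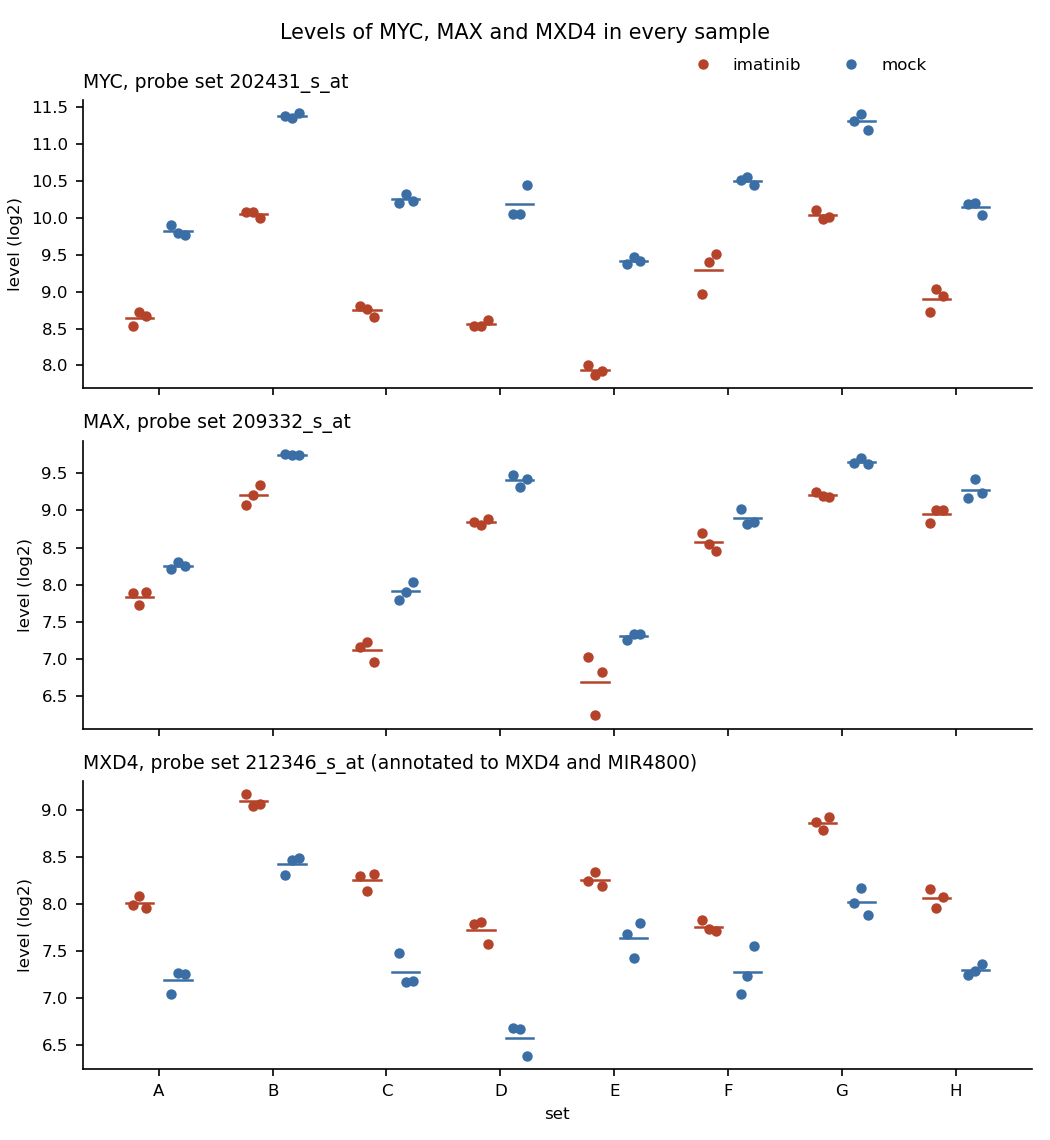
Log2 level (y axis) of MYC, MAX and MXD4 in every sample of the 8 sets (x axis), with imatinib samples at the left and mock samples at the right of each set. Points are samples and short lines are group means of 3. In every set the MYC and MAX points with imatinib lie below those with mock treatment, and the MXD4 points lie above.

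The other repressors that pair with MAX changed less. MXD3, a family member known from dividing cells, rose by 0.21 ± 0.03 on 221250_s_at (adjusted p = 8.43e-08). In set B it had levels of 8.72, 8.67 and 8.64 in imatinib samples, against 8.24, 8.34 and 8.52 in mock samples. In set F it had 7.11, 7.25 and 7.09 in imatinib samples, against 7.25, 7.13 and 7.16 in mock samples. The groups did not overlap in 6 sets, set B included, while they overlapped in set F, where the change was -0.03. How many of all probe sets did so in as many sets was not counted. MNT, a repressor that is found in most cells and counters MYC, rose by 0.18 ± 0.03 on 204206_at (adjusted p = 5.89e-06). Its change was above 0 in 8 of 8 sets, from 0.07 in set E to 0.33 in set F, and only set B was called. In set B its levels were 8.40, 8.36 and 8.46 in imatinib samples, against 8.28, 8.22 and 8.19 in mock samples.

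MXD1, the founding member of the MXD family, had a change of 0.09 ± 0.04 on 206877_at, which the filter leaves out with its mean of 5.92 (adjusted p = 0.0203). That call was lost with centred arrays (adjusted p = 0.184), with quantile normalization (0.245), without set B (0.0756) and without set D (0.0876). In set D its levels were 5.90, 5.86 and 5.92 with imatinib, against 5.56, 5.68 and 5.81 with mock treatment, and this was the only set called. MXI1, another repressor of the family, had a change of 0.04 with a 95% confidence interval from -0.03 to 0.12 on 202364_at and was not called (adjusted p = 0.309). With quantile normalization within sets its change was 0.14 and was called (adjusted p = 0.00011). In set F its levels were 8.94, 8.64 and 8.83 with imatinib, against 8.60, 8.53 and 8.62 with mock treatment, and 6 of 8 sets lay above 0.

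MLX, the partner of MLXIP and MLXIPL, gave 4 probe sets with small changes. The probe sets 217910_x_at and 213708_s_at rose by 0.11 ± 0.03 and 0.10 ± 0.03, with adjusted p-values of 0.000188 and 0.00205. With centred arrays the changes were 0.07 and 0.06, and the second call was lost (adjusted p = 0.0828), while quantile normalization gave 0.19 for each. In set D the probe set 217910_x_at had levels of 9.01, 8.86 and 8.88 with imatinib, against 8.79, 8.72 and 8.79 with mock treatment, without overlap. The probe sets 217909_s_at and 210752_s_at were not called, at -0.04 (95% confidence interval -0.10 to 0.03) and 0.03 (-0.03 to 0.08), and scaling turned the sign of both (217909_s_at to 0.03 with quantile normalization, 210752_s_at to -0.01 with centred arrays and -0.02 with quantile normalization). No MLX probe set was called in a single set.

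MYCN, the paralogue of MYC known from neural tissue, had 3 probe sets, with means between 5.38 and 5.79, all of which the filter leaves out. Small changes passed the test, 0.10 ± 0.03 on 209756_s_at (adjusted p = 0.00419) and 0.11 ± 0.04 on 211377_x_at (adjusted p = 0.0131). Neither call held with centred arrays (adjusted p = 0.057 and 0.0783) or with quantile normalization (0.088 and 0.104). The call of 211377_x_at was also lost with set means as replicates (0.0778) and without set B (0.0608), C (0.0552) or D (0.0649). The probe set 209757_s_at had a change of 0.04 and was not called (adjusted p = 0.247), and quantile normalization gave it a change of -0.002.

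Member calls in single sets were counted beside the share of all probe sets called in that set. Set B had 7 members called higher and 4 lower of 20, against 47.7% of all probe sets called. Sets C and D had 4 and 5 called higher and 4 and 3 lower, against 39.0% and 38.9% of all probe sets. Set A had 4 higher and 3 lower against 28.3%, and set G 3 higher and 4 lower against 27.5%. Set H had 3 higher and 3 lower against 24.1%, set E 3 higher and 2 lower against 19.4%, and set F 3 higher and 1 lower against 16.5%. In all, 56 of the 160 single-set tests were called, to be read against the shares above, from 16.5% to 47.7%. MYC and the 3 MXD4 probe sets were called in every set. How many of all probe sets were called in every set was not counted.

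The difference between MYC and every other member was tested directly, as the level of a probe set minus that of MYC in the same sample, in which the scaling of an array cancels. All 19 other probe sets changed by another amount than MYC, as did 99.4% of all probe sets, so the count says nothing particular about the members. The changes relative to MYC ranged from 0.86 ± 0.05 for MAX 209332_s_at to 2.20 ± 0.05 for MXD4 210778_s_at. MXD3 and MNT moved by 1.57 ± 0.05 and 1.54 ± 0.05 relative to MYC.

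MYC and MXD proteins with MAX recognise the E-box CACGTG, and the 250 bases before the annotated start of each gene were searched for it. The motif reads the same on both strands. It was found in 6.34% of 35116 such windows of RefSeq (assembly GRCh38.p14), or in 7.73% of 27305 genes. Of the 8 member genes with a window, MXD4, MNT and MLX held it, and MYCN, MAX, MXD1, MXD3 and MXI1 did not. MYC had no window and was not searched. It starts 238 bases before the start of MXD4, 193 before that of MNT and 50 before that of MLX. Of 30 genes of the list of MYC-activated targets below that had a window, 13 held it, or 43.3%. Those called lower below were SRM, HK2, ODC1, PPAT, EIF4E, LDHA, HSPD1, PRDX3 and RCC1. Those called higher were CDK4, APEX1, DNPH1 and TERT. In the spermidine synthase gene SRM it starts 199 bases before the start. A match is a description of these letters only. The sequences are shown because MXD4 had the largest rise of the network, MNT and MLX are the other members with the motif, and SRM was among the targets with the largest falls. They run 5′ to 3′ on the strand of the gene, with the E-box in capitals. The whole MXD4 window is chr4:2262110-2262359 on the minus strand, and the others are the motif with 30 bases on either side, at chr17:2401218-2401283 on the minus strand for MNT, chr17:42567020-42567085 on the plus strand for MLX and chr1:11060182-11060247 on the minus strand for SRM.
MXD4: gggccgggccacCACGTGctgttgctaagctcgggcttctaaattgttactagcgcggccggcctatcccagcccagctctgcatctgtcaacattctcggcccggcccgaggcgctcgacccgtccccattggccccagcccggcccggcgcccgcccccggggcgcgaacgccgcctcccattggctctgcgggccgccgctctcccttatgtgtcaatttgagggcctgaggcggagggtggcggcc
MNT: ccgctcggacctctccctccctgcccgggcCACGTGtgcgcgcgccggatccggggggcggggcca
MLX: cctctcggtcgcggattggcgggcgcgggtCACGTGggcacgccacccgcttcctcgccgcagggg
SRM: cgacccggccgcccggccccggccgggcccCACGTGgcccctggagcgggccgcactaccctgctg

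Genes known for their part in the network were described next, each by its brightest probe set with 1 gene symbol. The lists were chosen with earlier results of these data known. After the first 2 lists, up to 4 genes of a list were picked for having its smallest p-values. The shares to read the counts against are the 41.6% of all genes called higher and the 27.1% called lower, with a median change of 0.053. With centred arrays they were 30.5% and 30.5%. Of the 4 other proteins of the network, 2 were called higher and 2 lower, with a median change of -0.055. MGA, a MAX partner that represses E-box genes, fell by 0.29 ± 0.05 and MYCL, a MYC paralogue, fell by 0.20 ± 0.03 (adjusted p = 3.31e-06 and 5.21e-08). A dimmer MYCL probe set, 215491_at, had a change of -0.03 and was not called, and the mean of both was -0.11. MLXIPL, the MLX partner also known as ChREBP, rose by 0.23 ± 0.04 (adjusted p = 3.49e-06).

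MLXIP, the MLX partner also known as MondoA, had a change of 0.09 ± 0.04 on 202519_at (adjusted p = 0.0414). Its other probe set, 211789_s_at, had a change of -0.33 ± 0.06 (adjusted p = 1.62e-06), so the direction of MLXIP depends on the probe set. The mean of both was -0.12 and was called lower (adjusted p = 0.00319), and the call of 202519_at was lost with centred arrays (adjusted p = 0.319), with set means as replicates (0.0714), with a replicate block (0.0653), and without any 1 of 21 of the 48 samples. The known targets of MLX with MLXIP were represented by TXNIP, which limits glucose uptake, and KLF10, a zinc finger factor. TXNIP had a mean level of 11.99 in imatinib samples and 11.32 in mock samples, a rise of 0.67 ± 0.03 (adjusted p = 2.14e-27). Its 2 other probe sets also rose, by 0.77 and 0.70. KLF10 had a mean level of 8.84 in imatinib samples and 7.53 in mock samples, a rise of 1.31 ± 0.06 (adjusted p = 8e-25). Both genes were higher without overlap in 8 of 8 sets, a pattern held in the higher direction by 5.43% of all probe sets. ARRDC4, the other gene of this list, was not measured.

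Targets known to be raised by MYC were lower after imatinib. Of 31 measured genes of this list, 24 were called lower and 7 higher, with a median change of -0.56, against the 27.1% and 41.6% of all genes. The median of the list lay between -0.69 and -0.44 over the 8 sets. The 4 genes given next were picked for the smallest p-values of the list, and each fell by more than its median. CCND2, a cyclin of the G1 phase, averaged 7.22 in imatinib samples and 9.05 in mock samples, a change of -1.84 ± 0.05. HK2, a hexokinase of the first step of glycolysis, averaged 7.22 in imatinib samples and 8.98 in mock samples, a change of -1.76 ± 0.04. The other HK2 probe set, 222305_at, had a change of -0.27, and the mean of both was -1.02. The polyamine enzyme gene SRM, whose E-box is shown above, averaged 7.93 in imatinib samples and 9.61 in mock samples, a change of -1.68 ± 0.04. ENO1, a glycolytic enzyme, averaged 11.30 in imatinib samples and 12.28 in mock samples, a change of -0.98 ± 0.03. The adjusted p-values of these genes in limma lay between 2.85e-35 and 3.45e-32, and the other probe sets of CCND2 and ENO1 fell too.

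The list was not uniform. The 7 genes called higher were UBTF, CDK4, APEX1, TFRC, DNPH1, TERT and IMPDH2, and these were named after their values were seen. UBTF, a factor of ribosomal RNA transcription, rose most, by 0.84, and CDK4, a kinase of the G1 phase, rose by 0.44. APEX1, a DNA repair enzyme, rose by 0.42, and the transferrin receptor gene TFRC by 0.21.

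**Figure D3:**
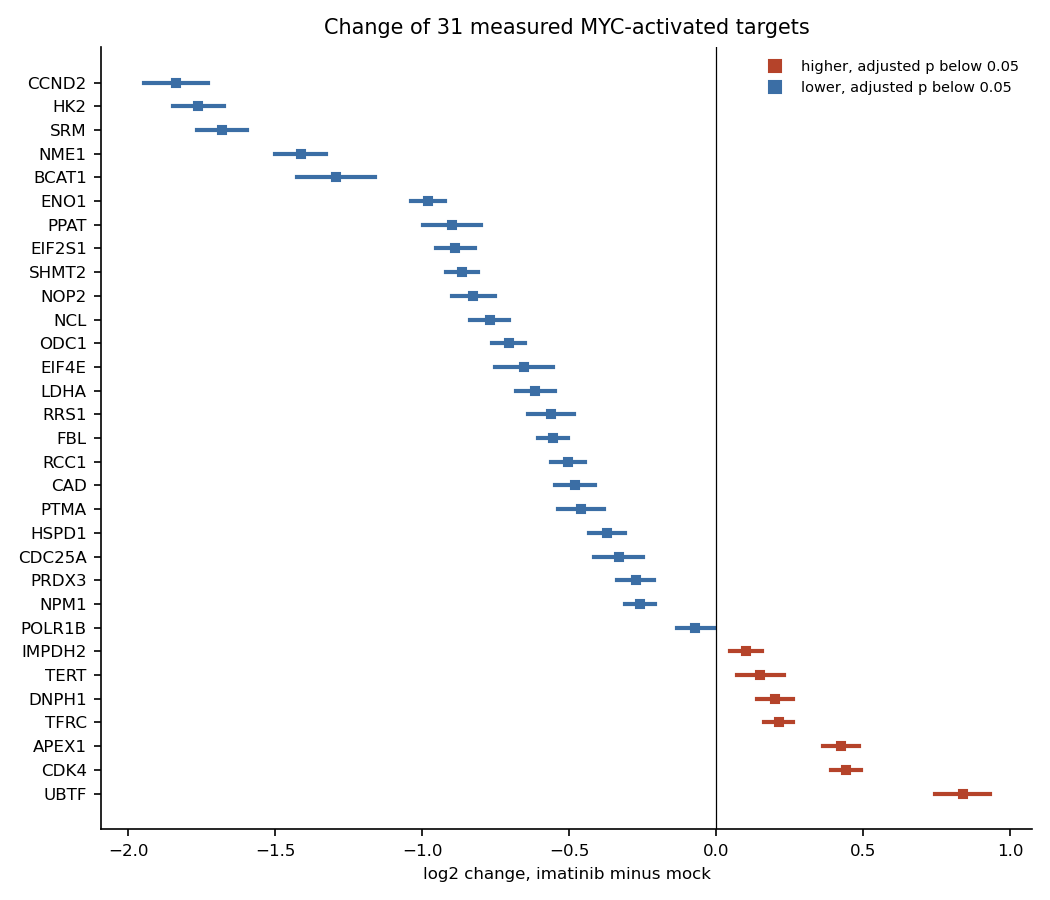
Log2 change (imatinib minus mock, x axis) of the 31 measured MYC-activated targets in the combined fit of 24 against 24 samples, with 95% confidence intervals. Of these 24 lie left of 0 and 7 right of it, from CCND2 at -1.84 to UBTF at 0.84.

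Of 9 measured targets known to be held down by MYC, 4 were called higher, 1 lower and 4 were not called, so the share called higher was near the 41.6% of all genes. Their median was 0.085, or 0.047 with centred arrays, 0.049 with quantile normalization and 0.23 over probe sets at or above the median level. CDKN1B, an inhibitor of cyclin-dependent kinases, rose by 0.72 ± 0.08 and averaged 7.67 in imatinib samples and 6.96 in mock samples. NDRG2 and NDRG1, genes linked to differentiation, rose by 0.29 ± 0.03 and 0.23 ± 0.03. Another NDRG2 probe set, 214278_s_at, had a change of 0.05 and was not called, and the mean of the NDRG2 probe sets was 0.18. GADD45A, a stress gene, went the other way, with 9.43 in imatinib samples and 9.94 in mock samples, a change of -0.51 ± 0.04.

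Of 12 measured coactivators of MYC, 6 were called lower and 3 higher, with a median of -0.082. RUVBL2 and RUVBL1, paired ATPases of chromatin remodelling complexes, fell by 1.39 ± 0.03 and 1.31 ± 0.04 on the log2 scale. RUVBL2 averaged 9.38 in imatinib samples and 10.77 in mock samples. TRRAP, the scaffold that joins MYC to histone acetyltransferases, fell by 0.32 ± 0.04, and BPTF, a reader of histone methylation, rose by 0.72 ± 0.05.

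Of 7 measured corepressors of MXD proteins and MNT, 4 were called lower and 1 higher, with a median of -0.161, or -0.02 with the mean of a gene's probe sets. SAP30, a subunit of the SIN3 complex, had a change of -0.66 ± 0.07, while its dimmest probe set, 204898_at, rose by 0.14 (adjusted p = 2e-04), and the mean of its probe sets was -0.28. The histone-binding subunit gene RBBP7 fell by 0.26 ± 0.03, and RBBP4 rose by 0.19 ± 0.04. SAP18, another SIN3 subunit, had a change of -0.25 ± 0.03 on its brightest probe set, while its other probe sets, 208741_at and 208740_at, rose by 0.15 and 0.24. The sign of SAP18 thus depends on the probe set, and the mean of all its probe sets was 0.05 (adjusted p = 0.0492).

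Of 10 measured genes of MYC protein turnover and partners, 6 were called lower and 1 higher, with a median of -0.202. PIM1, a kinase that phosphorylates MYC, averaged 9.99 in imatinib samples and 10.92 in mock samples, a change of -0.93 ± 0.03. SET, an inhibitor of the phosphatase PP2A, fell by 0.43 ± 0.05, and AURKA, a mitotic kinase that steadies MYCN protein, fell by 0.42 ± 0.04. ZBTB17, the partner through which MYC represses genes, had a change of -0.18 ± 0.03 on one probe set and -0.01 on another, 203601_s_at, which was not called. A further AURKA probe set, 208080_at, was not called either, at -0.003. The means over the probe sets were -0.25 for AURKA and -0.10 for ZBTB17.

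Of 10 measured regulators of the MYC transcript, 6 were called lower and 3 higher, with a median of -0.31, or -0.20 with quantile normalization. MYB, a transcription factor of blood progenitors, averaged 8.71 in imatinib samples and 10.66 in mock samples, a change of -1.96 ± 0.05. The other MYB probe set, 215152_at, had a change of -0.27, and the mean of both was -1.11. CNBP, which binds the MYC promoter, fell by 0.61 ± 0.05, and STAT5A, a factor activated by BCR-ABL1, fell by 0.45 ± 0.03. FUBP1, which binds a region upstream of MYC, had a change of -0.62 ± 0.03 on its brightest probe set. Of its other probe sets 212847_at fell by 0.42, while 214093_s_at and 214094_at rose by 0.16 each. The sign of FUBP1 thus depends on the probe set, and the mean of all its probe sets was -0.18. The 3 genes called higher, named after their values were seen, were STAT5B, the paralogue of STAT5A, at 0.36, CTCF, an insulator protein, at 0.34, and E2F1, a factor of S phase entry, at 0.24, each above 0 in 8 of 8 sets.

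**Figure D4:**
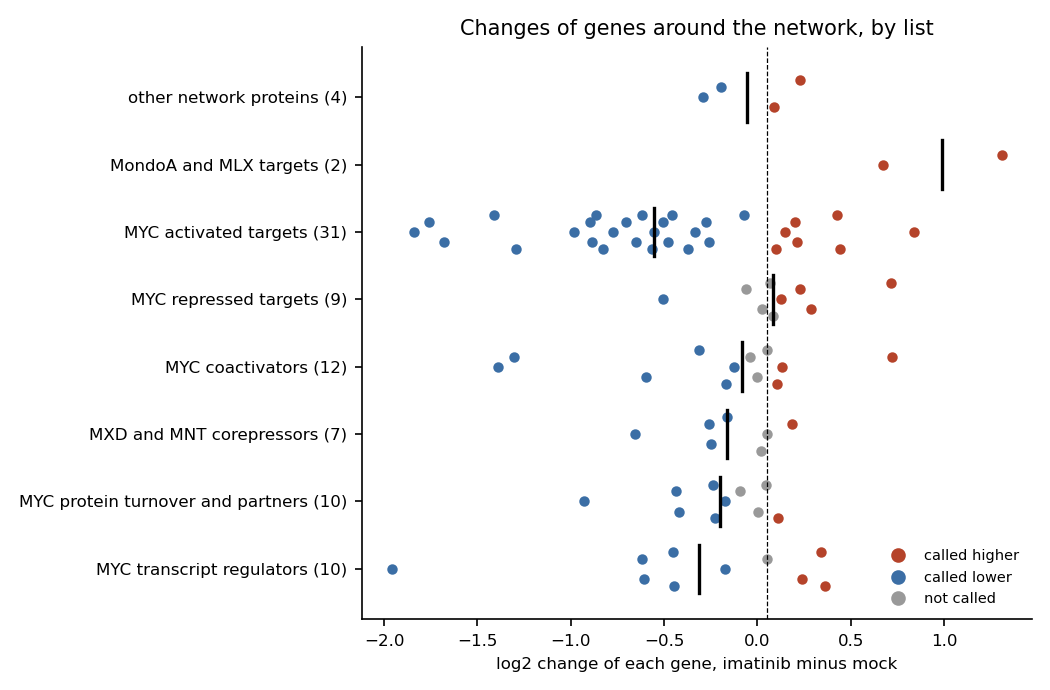
Log2 change (imatinib minus mock, x axis) of each measured gene of 8 lists around the network (rows, with the number measured), coloured by call in the combined fit. Thick bars are list medians and the dashed line is the median of all genes, 0.053. The MYC-activated targets have a median of -0.56.

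Genes whose pattern was most like MYC's were found by Pearson's r over the 48 samples after the mean of each set was subtracted. These values are a description, and they share the treatment contrast. HHEX, NQO2 and ID1 each had r = 0.989, and RUVBL2 and ASNS each had 0.988. All 5 were called lower in 8 of 8 sets, which their choice by likeness to MYC largely fixed. HHEX, a homeobox gene, averaged 6.13 in imatinib samples and 9.81 in mock samples. The genes most like MXD4, by its brightest probe set 212346_s_at, were ST6GALNAC4 (r = 0.955), GFI1B (0.953), TNFAIP2 (0.952), FLOT2 (0.952) and AMHR2 (0.950). All 5 were called higher in 8 of 8 sets, which their choice by likeness to MXD4 largely fixed. GFI1B, a repressor needed for red cell and platelet formation, averaged 9.18 in imatinib samples and 7.18 in mock samples.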

How the data were processed

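RNA of 48 K562 samples was measured on Affymetrix arrays. The authors deposited 1 log2 value per probe set and sample; how the background was corrected, probes summarised and arrays normalized is not given in the sources used here, and the log2 scale was read from the values. Values were used as deposited, and all sample columns were used. The 68 control probe sets were left out. Of the others, 19065 had 1 gene symbol, 1043 several and 2107 none in the platform annotation, updated through gene numbers to RefSeq GRCh38.p14. A gene outside the members was represented by its brightest probe set with 1 symbol.

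Changes were fitted by lmFit and eBayes of limma 3.58.1 under R 4.3.3, two-sided, with set as a factor over 24 against 24 samples, and for each set alone, 3 against 3. Set-by-treatment terms and differences from the MYC probe set were fitted likewise. P-values were adjusted by Benjamini-Hochberg over all probe sets of the fit, with a threshold of 0.05. The members and lists were chosen with earlier results of these data known, and the lists hold no test of their own. The named genes were all members, all genes of the first 2 lists, up to 4 genes of each other list with the smallest p at or above the median level, and the 5 genes most like MYC and MXD4. Alternatives were centring, quantile normalization within sets, a filter on dim probe sets, set means, a replicate block, each set or sample left out, other probe sets and other gene summaries. Figures were drawn with matplotlib 3.10.9. No duplicates were found among replicates, whose largest differences were at least 0.67. The number of samples limits the precision.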

Additional observations from a re-analysis of the deposited data

Results flagged for a closer look

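The change of MXD4 probe set 212346_s_at differed between the 8 sets, with an adjusted p of 0.0382 in limma's F test of the set-by-treatment terms. Its change lay between 0.48 in set F and 1.15 in set D and was above 0 in 8 of 8 sets. The other MXD4 probe sets, 210778_s_at and 212347_x_at, had adjusted p-values of 0.295 and 0.6 in that test. With a replicate block it was 0.0877 and with centred arrays 0.0594. Over all alternatives the adjusted p lay between 0.0105 and 0.187. It passed the threshold no longer without mock sample 2 of set B, imatinib sample 1 or 3 or mock sample 2 or 3 of set C, imatinib sample 1 or 2 or mock sample 3 of set D, imatinib sample 3 or mock sample 1 of set E, imatinib sample 3 or mock sample 3 of set F, or imatinib sample 1 of set G, each left out alone (0.051 to 0.0888).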

How the results depend on the processing

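Over 114 results and 5921 pairs of a result and an alternative, 5774 pairs were judged the same, and 6 turned in sign. A change was the same when it kept its direction and its side of the threshold. A difference between sets was the same when it stayed called. A count was the same within a fixed ratio of its main value, and a list median within the SD of its values over sets. The calls of MYC, 4 MAX, 3 MXD4, MXD3, MNT and MLX 217910_x_at in the combined fit held under all alternatives that tested them, with MYC between -1.40 and -1.25. With centred arrays 6 members were called higher, 1 of the other network proteins was called higher and 2 of the MYC-repressed targets lower, and no member differed between sets (0). Without probe sets ending in _x_at or _s_at, fewer members were tested, and 2 were called higher and 0 lower. Only MAX 214108_at, which was not called in the main fit, MXD1, MXI1 and MNT remained. This leaves out MYC, MXD3, all MYCN, MXD4 and MLX probe sets and the 4 MAX probe sets called lower, so their calls were not tested. With only probe sets at or above the median level 9019 were called in all, again of fewer tested. The other network proteins had 1 gene called higher with set means, with the mean of a gene's probe sets, and without set B, C, F or H, and between 1 and 2 without any 1 sample. The corepressors had 2 called higher with quantile normalization and with the mean of probe sets, and the turnover genes 2 without set G and with that mean, and between 1 and 2 without any 1 sample. Without set B, C, D or F 0 members differed between sets, without set E 2, and between 0 and 2 without any 1 sample. Signs turned for MLX 210752_s_at (-0.012 centred, -0.019 quantile), MYCN 209757_s_at (-0.002 quantile), MLX 217909_s_at (0.03 quantile), MLXIP (-0.121) and SAP18 (0.046), both with the mean of probe sets; the cause was not tested beyond the probe sets given above. Same-numbered samples did not deviate together throughout (correlations -0.515 to 0.488, median 0.016, above 0.1 in 7 of 24 pairs), so the numbers were not taken as pairs. These values cannot decide whether the samples of some sets were paired. With a replicate block 1 of the other network proteins was called higher and 0 members differed between sets.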
